A study of Mus musculus with 8 samples.

Results

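The interferon-stimulated gene families and the interferon regulatory factor (IRF) and STAT transcription factors were followed in ILC2 (group 2 innate lymphoid cells, which reside in tissues and secrete type 2 cytokines such as IL-5 and IL-13) from the thymus of Il25 KO and WT mice. Members were taken by gene symbol: the Ifi, Ifih1, Ifit and Ifitm, Irf, Isg, Oas, Gbp, Mx and Stat symbols, with Rsad2, Usp18, Bst2, Zbp1, Rtp4, Igtp and Iigp1. The rule found 62 of the 10913 genes listed, and 56 of them passed the filter on low counts that left 9016 genes to test.

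The cells were sorted from thymi of young, untreated male mice after digestion with Liberase TM and DNase. There were 4 libraries from mice labelled Il25 KO, which lack the tuft cell cytokine IL-25, and 4 from WT mice of matched age. The labels do not describe the allele, the gates of the sort, or whether each library came from 1 mouse, so p-values measure only the spread between these libraries. RNA was counted by MARS-seq, which tags the 3′ end of each polyadenylated transcript with a unique molecular identifier (UMI), so that a count does not grow with transcript length.

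Libraries held 1915365 to 3250718 UMIs, and no pair held identical counts. Il25 itself was not analysed here, so the knockout was not checked in these libraries. Of 11 ILC2 markers, 8 were in the table. Gata3, the transcription factor that specifies the lineage, was at 49.0 to 82.4 CPM, the UMI count scaled to a common library total. Il17rb, a chain of the IL-25 receptor, was higher in KO without overlap (170 to 192 CPM against 147 to 162 in WT). So was Areg (33.0 to 62.1 CPM against 15.8 to 32.6). The sums of the 8 overlapped, at 578 to 614 CPM in KO and 458.5 to 585 in WT. The type 2 cytokine gene Il13 was at 0.790 to 9.21 CPM and the co-stimulatory receptor gene Icos at 0 to 2.93 CPM, and Il1rl1, Klrg1 and Rora were not analysed here. Markers of other cells were also counted. Of 8 NK cell and ILC1 markers, 2 were in the table. The cytotoxic granule gene Gzma was at 444 to 680 CPM, and Tbx21 at 0 to 3.35 CPM. Of 12 thymocyte and T cell markers, 11 were in the table, with overlapping sums of 3598 to 4134 CPM in KO and 3334 to 4398 in WT. Single markers did separate the groups. Dntt, which adds bases at antigen receptor gene junctions, was at 2179 to 2552 CPM in KO and 1835 to 2118 in WT. The T cell receptor complex genes Cd3d, at 120.5 to 189 and 217 to 318 CPM, and Ptcra, at 26.5 to 33.3 and 39.7 to 61.1 CPM, were lower in KO. Cd8b1, a chain of the T cell co-receptor CD8, was also lower in KO, at 33.7 to 48.1 CPM against 55.7 to 357 in WT. WT replicate 1 stood apart: Cd8b1 was at 357 CPM there against 55.7 to 65.2 in the other WT libraries. Cd8a, Cd4 and Rag1 were at 81.7, 78.7 and 75.7 CPM there, against at most 11.3, 6.47 and 37.4 in any other library. Cd3e, Cd3g, Dntt and Lck were not highest in WT replicate 1. The complement genes C1qa, C1qb and C1qc of macrophages were at 8.60 to 12.04 CPM in WT replicate 1, against at most 1.12 in the others. In bulk RNA, fewer cells of a type and less RNA per cell cannot be told apart.

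Interferons are cytokines that induce antiviral and antimicrobial genes. Type I interferons activate STAT proteins, among them STAT2, which join IRF9 and bind the interferon-stimulated response element (ISRE), whereas interferon gamma activates STAT dimers that bind the gamma-activated sequence (GAS) and induce IRF1, itself an activator of ISRE genes. Many genes answer both kinds of interferon, so the grouping used here into 14 interferon gamma type genes, 32 type I genes, 5 genes of the Ifi200 family of DNA-binding proteins, 4 other IRF genes and 7 STAT genes is a convention. Interferons are known to restrain ILC2.

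The promoters of 5 members are shown with their matches to the ISRE and the GAS. Each window runs from 250 bases before to 50 bases after a RefSeq transcription start (GRCm38.p6). It is written 5′ to 3′ on the strand of the gene, with capitals marking the ISRE core GAAANNGAAA or the GAS palindrome TTCNNNGAA, each searched on both strands. Irf1 is shown for its single GAS, at chr11:53769764-53770063 (+). Isg15 is shown for its 3 overlapping ISRE cores, at chr4:156200769-156201068 (-). Oas3 has the lowest fold change among the members and holds 1 ISRE core, at chr5:120777610-120777909 (-). Ifit1 has 2 ISRE cores, at chr19:34640639-34640938 (+). Gbp5 holds both kinds of element, at chr3:142496684-142496983 (+).
Irf1: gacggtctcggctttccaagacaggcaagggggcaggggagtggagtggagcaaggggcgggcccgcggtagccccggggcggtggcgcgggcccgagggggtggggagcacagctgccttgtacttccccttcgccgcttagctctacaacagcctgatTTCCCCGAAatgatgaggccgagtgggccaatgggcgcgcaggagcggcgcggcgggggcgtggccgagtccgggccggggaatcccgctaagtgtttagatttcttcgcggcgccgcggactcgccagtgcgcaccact
Isg15: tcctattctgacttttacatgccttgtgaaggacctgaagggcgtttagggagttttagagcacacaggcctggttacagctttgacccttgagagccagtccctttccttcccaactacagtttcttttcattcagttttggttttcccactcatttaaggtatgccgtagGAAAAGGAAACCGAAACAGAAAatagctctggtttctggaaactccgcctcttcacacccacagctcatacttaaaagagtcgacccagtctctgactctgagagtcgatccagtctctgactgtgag
Oas3: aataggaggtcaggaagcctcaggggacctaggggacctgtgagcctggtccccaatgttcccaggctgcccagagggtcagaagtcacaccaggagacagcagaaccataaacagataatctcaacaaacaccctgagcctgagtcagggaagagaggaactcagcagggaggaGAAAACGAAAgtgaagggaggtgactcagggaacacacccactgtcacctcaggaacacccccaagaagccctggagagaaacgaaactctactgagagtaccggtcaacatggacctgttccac
Ifit1: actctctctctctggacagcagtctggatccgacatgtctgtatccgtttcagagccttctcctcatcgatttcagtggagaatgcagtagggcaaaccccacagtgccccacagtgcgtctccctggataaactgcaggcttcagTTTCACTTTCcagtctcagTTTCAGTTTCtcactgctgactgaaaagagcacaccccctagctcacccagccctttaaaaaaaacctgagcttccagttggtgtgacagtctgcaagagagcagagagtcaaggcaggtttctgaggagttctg
Gbp5: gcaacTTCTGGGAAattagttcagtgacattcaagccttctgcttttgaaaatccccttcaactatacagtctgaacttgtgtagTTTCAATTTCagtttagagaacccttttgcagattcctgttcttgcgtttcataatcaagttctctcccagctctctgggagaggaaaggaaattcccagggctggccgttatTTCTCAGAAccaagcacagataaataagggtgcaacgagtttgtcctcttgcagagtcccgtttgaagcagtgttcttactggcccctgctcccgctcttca

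The GAS of Irf1 read TTCCCCGAA and began 90 bases upstream of the start. In Isg15 the 3 cores began 78, 72 and 66 bases upstream and share their GAAA blocks. The core of Oas3 began 75 bases upstream, and those of Ifit1 began 104 and 85 bases upstream in the opposite orientation. A match is a description of the letters in this window and not a measured binding site.

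The RefSeq table held a window for 47 of the 62 members. An ISRE core was present in 24 of these 47 genes (51.1%), against 3.85% of the 7324 tested genes with a window and 3.99% of all 27025 genes in the table, taking a gene as positive if any of its windows matched. A GAS was present in 12 members (25.5%), against 8.15% of the tested genes and 9.55% of all genes. Counted by window, 42.4% of the 59 member windows held an ISRE core, against 3.44% of all 32851 windows. By role, 12 of 23 type I genes, 5 of 9 interferon gamma type genes and 4 of 5 Ifi200 genes held an ISRE core. A GAS was in 6 type I genes, in 5 interferon gamma type genes and in no Ifi200 gene. Of the 6 STAT genes with a window, Stat2 and Stat4 held an ISRE core and none held a GAS. Irf7, Irf9, Oasl2 and Ifi44 held neither motif in their windows.

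**Figure D1:**
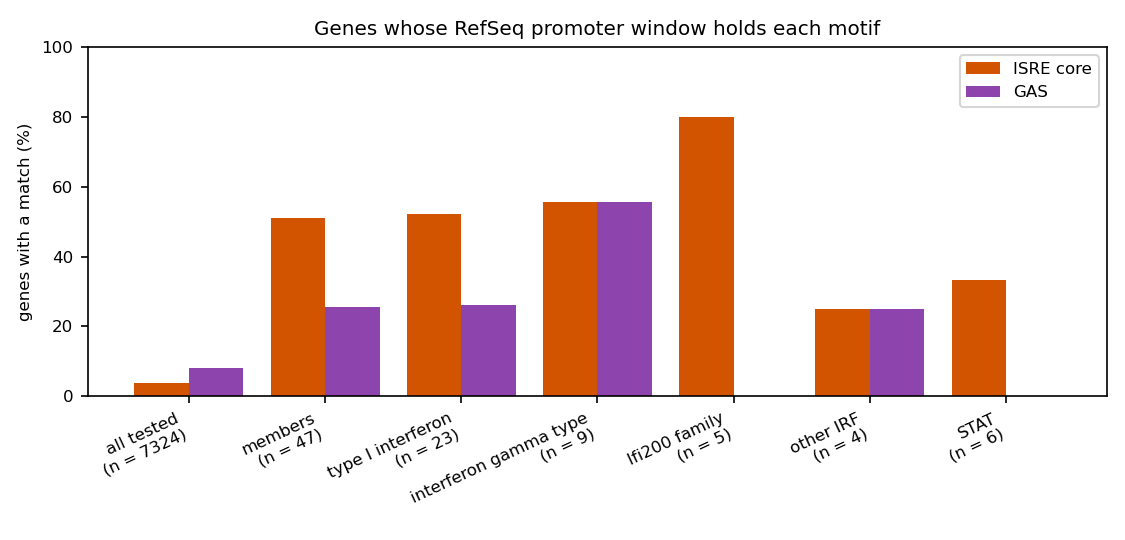
Share of genes (%, bars, axis from 0 to 100) whose RefSeq promoter window holds an ISRE core or a GAS on either strand, for all tested genes, all members and each role group, with n the genes that have a window. An ISRE core was in 51.1% of members and 3.85% of tested genes.

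Between Il25 KO and WT, none of the 56 tested members passed the test: 0 rose and 0 fell (edgeR quasi-likelihood test, adjusted p under 0.05). Over all 9016 genes tested, 0.177% were called higher and 0.0333% lower in KO, so the absence of calls among 56 members is close to this background. DESeq2 called 1 member higher, Irf1, and 0 lower, against 0.368% and 0.223% of the 7613 genes to which it gave an adjusted p. It gave none to 15 of the tested members, among them Oas3 and Ifi44 (unadjusted p = 0.00169 and 0.0124), so these could not be called. limma-voom called 0 members. At an unadjusted p under 0.05, Irf1 alone was higher, where the share over all genes was 5.12%, and Oas3, Oasl2 and Ifi44 were lower, where the share over all genes was 5.71%. The 4 KO and 4 WT values did not overlap for Irf1, on the higher side (2.92% of all genes), nor for Oas3 and Oasl2, on the lower side (2.31% of all genes). These shares of members (1 and 3 of 56, and 1 and 2 of 56) are near those of all genes.

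The median log2 fold change (KO over WT) was -0.02 over the tested members and 0.00 over all tested genes. Of the members, 26 were above 0 and 30 below. The type I genes had a median of -0.14, with 8 above 0 and 20 below (71.4% below, against 50.5% of all genes), and the interferon gamma type genes one of 0.02, with 8 above and 6 below. The STAT genes had a median of 0.04, with 4 above and 3 below. The 4 other IRF genes lay above 0 with a median of 0.18, or 3 of the 4 under median of ratios scaling, where Irf3 lay just below 0. With any 1 library left out 3 of the 4 lay above 0, and the median was 0.01 without KO replicate 4 and 0.03 without WT replicate 4. Without WT replicate 4, whose type I genes are described further on, the type I median was -0.05, with 10 above 0 and 18 below. The interferon gamma type median was -0.075 without KO replicate 2 (6 above 0 and 8 below), -0.04 without KO replicate 3, -0.04 without WT replicate 1 (5 above 0 and 9 below) and 0.09 without WT replicate 3.

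**Figure D2:**
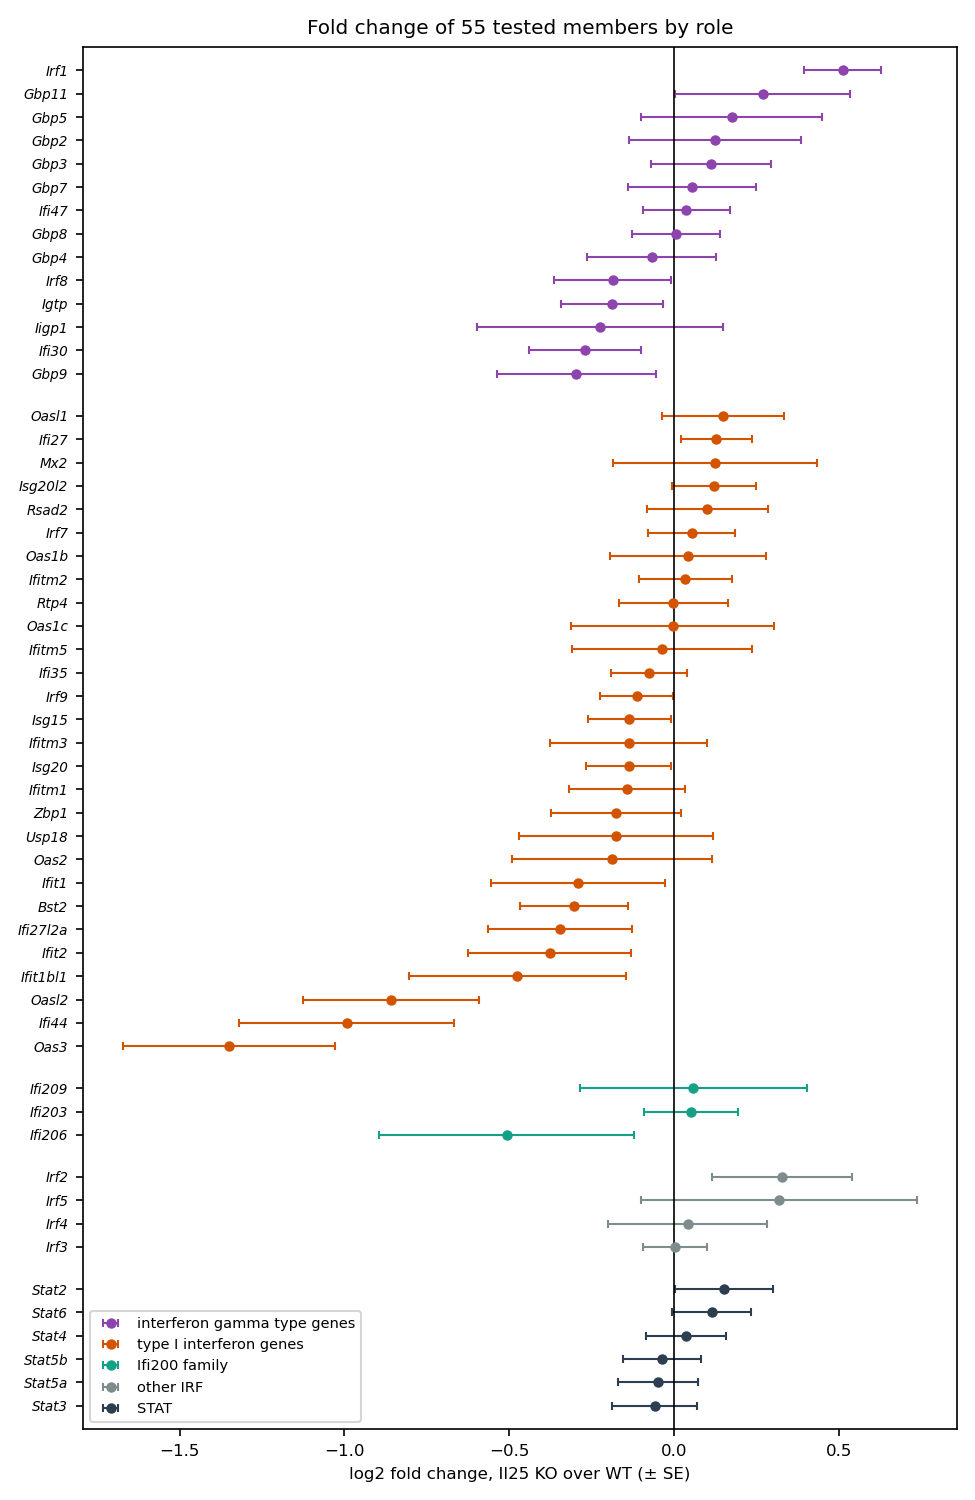
Log2 fold change (KO over WT, x axis) with its standard error (bars) for 55 tested members, grouped by role and ordered within a role. Irf1 lies at 0.51 and Oas3, Ifi44 and Oasl2 lie at -1.35, -0.99 and -0.86, while the STAT genes lie between -0.06 and 0.15.

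Among the interferon gamma type genes, Irf1 was the member with the lowest p. It encodes the transcription factor that relays interferon gamma signals, and lies at chr11:53770014-53778374 (+). The KO libraries (replicates 1 to 4) held 356, 267, 308 and 323 CPM and the WT libraries 257, 193, 209 and 222 CPM. Every KO value lay above every WT value, the closest being KO replicate 2 and WT replicate 1. The means were 313 ± 36.7 and 220 ± 27.1 CPM (SD, n = 4 each), from 3188 and 2399 UMIs. The log2 fold change was 0.51 ± 0.12 (SE), with a 95% interval of 0.27 to 0.76 and an edgeR adjusted p = 0.0904, above the threshold.

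The call on Irf1 depended on the tool and on single libraries. DESeq2 gave an adjusted p = 0.0154. Without KO replicate 2 the edgeR adjusted p was 0.028 and without WT replicate 1 it was 0.0434, while without WT replicate 2 it was 0.373. The log2 fold change lay between 0.45 and 0.59 whichever library was left out.

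Irf1 is also known as an early response gene, and values of other early response genes moved with it. The 13 listed immediate early genes, such as Fos, Jun and Egr1, summed to 5086 to 6101 CPM in KO against 2951 to 4269 in WT, without overlap. By the edgeR test 5 of the 13 rose, against 0.177% of all tested genes. The 8 listed heat shock genes summed to 27320 to 34820 CPM in KO against 18070 to 26700 in WT, again without overlap. Of these genes edgeR called none and DESeq2 called 1 (Hspa1b). By edgeR, 5 were higher at an unadjusted p under 0.05 (5.12% of all tested genes). In both sums WT replicate 1 was the highest of the WT libraries, as it was for Irf1. The part of these genes, and of the markers Dntt, Cd3d, Ptcra, Cd8b1, Il17rb and Areg, in the difference in Irf1 was not tested.

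The other interferon gamma type genes did not separate the groups as Irf1 did. The summed level of the other 13 was 404, 492, 450 and 412 CPM in KO against 489, 446, 455 and 445 in WT, with overlapping groups. Irf8, a second interferon-inducible IRF that also directs myeloid and dendritic cell development, held 17.2, 20.8, 18.1 and 20.5 CPM in KO against 22.8, 19.4, 17.3 and 27.0 in WT. These values overlap, for a log2 fold change of -0.19 ± 0.18 (edgeR adjusted p = 0.745). Igtp, an immunity-related GTPase that guards vacuoles holding microbes, held 106, 106, 116 and 100 CPM in KO against 178, 93.3, 101 and 119 in WT. A single library, WT replicate 1, was far above the rest, and the log2 fold change turned from -0.19 ± 0.16 (edgeR adjusted p = 0.703) to 0.04 without it. Igtp was thus highest in the library with the Cd8b1 and C1q counts given above, and their part in its level was not tested.

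Ifi30, a lysosomal thiol reductase of antigen processing, held 31.1, 27.5, 23.6 and 33.9 CPM in KO against 44.7, 38.3, 28.5 and 29.2 in WT. The groups overlap, the highest value again being WT replicate 1, and the log2 fold change was -0.27 ± 0.17 (edgeR adjusted p = 0.587). Gbp9, a guanylate-binding protein, held 8.61, 9.87, 10.03 and 8.79 CPM in KO against 6.45, 15.4, 11.9 and 11.8 in WT. Its log2 fold change was -0.30 ± 0.24 (edgeR adjusted p = 0.696), and the WT libraries held both the lowest and the highest value.

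Guanylate-binding proteins are interferon-inducible GTPases that coat intracellular pathogens. Their genes form a cluster of 4 on chromosome 3 (chr3:142493978-142638008) and another of 4 on chromosome 5 (chr5:105014150-105346472). The chromosome 3 genes Gbp2, Gbp3, Gbp5 and Gbp7 had log2 fold changes of 0.06 to 0.17. The chromosome 5 genes Gbp4, Gbp8, Gbp9 and Gbp11 lay between -0.30 and 0.27. Gbp8 had 104 to 166 CPM, and the other 7 stayed between 3.81 and 32.3 CPM. Annotated spans of Gbp4, Gbp8 and Gbp9 overlap on the same strand, so reads may be split among them. Spans in the Ifi200, Ifit, Ifitm and Oas families do not overlap. Genes of these families and of the Gbp family may still be near-identical in places and share reads, which was not measured here. Of the last 2 interferon gamma type genes, Ifi47, a GTPase of the Igtp class, held 45.6 to 60.9 CPM, and Iigp1, another such GTPase, held 2.58 to 7.51 CPM. All 9 members of the group other than the 5 given in full had an edgeR adjusted p of 0.753 or more.

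In the type I group, Oas3 showed the largest difference. It encodes an oligoadenylate synthetase, an enzyme that senses double-stranded RNA and activates RNase L, and lies at chr5:120753098-120777661 (-). The KO libraries held 2.99, 2.08, 3.24 and 1.67 CPM and the WT libraries 4.73, 6.32, 6.79 and 8.26 CPM. No KO value reached a WT value. The means were 2.496 ± 0.741 and 6.53 ± 1.45 CPM (SD, n = 4 each), on 26 and 73 UMIs in all, and the log2 fold change was -1.35 ± 0.32 with an edgeR adjusted p = 0.1. The 95% interval ran from -2.03 to -0.68, and leaving out any 1 library gave -1.52 to -1.21. Oas3 was the 1 tested member that reached the filter's level of 3.84 CPM in WT libraries and in none of KO.

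Oasl2, a relative of the oligoadenylate synthetases, lies at chr5:114896936-114912234 (+). It held 6.74, 7.79, 7.44 and 5.86 CPM in KO against 9.89, 10.7, 9.51 and 19.7 in WT, without overlap. WT replicate 4 was about as far above the other WT libraries as they were above 0. The log2 fold change was -0.86 ± 0.27 (edgeR adjusted p = 0.226), and -0.52 without WT replicate 4. Ifi44, a type I interferon-induced gene at chr3:151730922-151749960 (-), held 3.37, 3.64, 3.24 and 5.44 CPM in KO against 3.44, 8.69, 8.49 and 9.85 in WT. Here WT replicate 1 sat at the KO level and the other 3 WT libraries lay above all KO libraries, for a log2 fold change of -0.99 ± 0.33 (edgeR adjusted p = 0.253).

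Bst2 encodes tetherin, which holds budding virus particles on the cell surface. It held 432, 340, 291 and 554 CPM in KO against 486, 519, 400 and 588 in WT, the highest library value of any tested member. The groups overlap, for a log2 fold change of -0.30 ± 0.16 (edgeR adjusted p = 0.524). Irf7, the factor that amplifies type I interferon production, held 48.7, 57.2, 60.9 and 49.4 CPM in KO against 49.0, 53.8, 43.8 and 61.3 in WT. Its log2 fold change was 0.05 ± 0.13 (edgeR adjusted p = 0.921), with a 95% interval of -0.22 to 0.33. Irf9, the DNA-binding partner of STAT2, held 67.4, 69.6, 66.0 and 60.3 CPM in KO against 76.6, 68.0, 64.9 and 75.3 in WT, a log2 fold change of -0.11 ± 0.11 (edgeR adjusted p = 0.751).

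**Figure D3:**
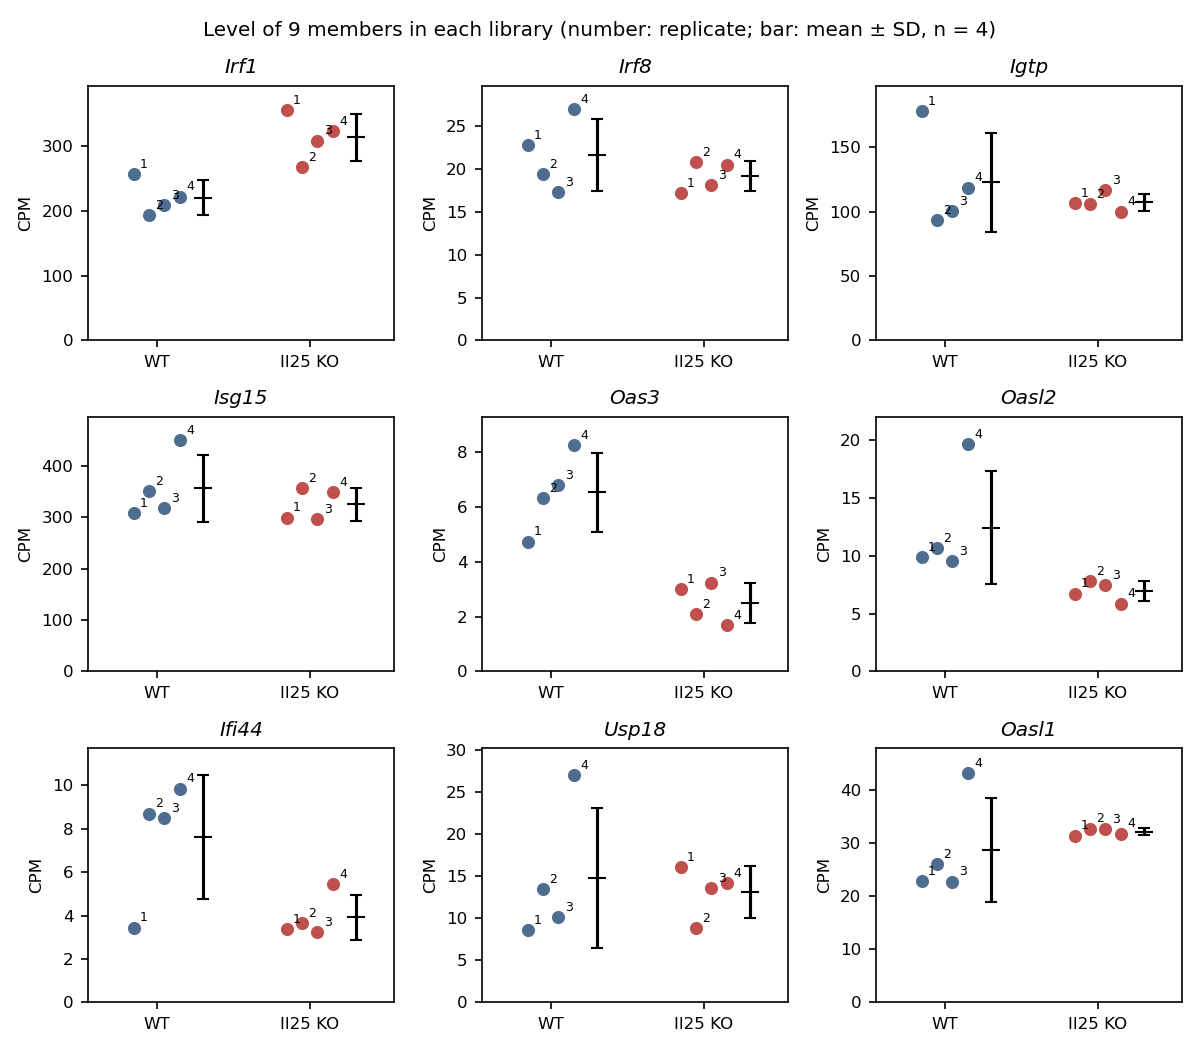
Level (CPM, each y axis from 0) of 9 members in each of the 4 WT and 4 KO libraries, with replicate numbers beside the points and bars for the mean ± SD. Irf1, Oas3 and Oasl2 separate the groups, whereas WT replicate 4 carries the highest point for Irf8, Isg15, Oas3, Oasl2, Ifi44, Usp18 and Oasl1 and WT replicate 1 that for Igtp.

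The other 22 tested type I genes had log2 fold changes of -0.48 to 0.15, with 7 above 0 and 15 below, and the lowest edgeR adjusted p was 0.586. The 3 tested Ifit genes, whose proteins bind viral RNA and block its translation, were all below 0, with Ifit1bl1 at -0.48, Ifit2 at -0.38 and Ifit1 at -0.29, and levels of 2.59 to 13.4 CPM. The 4 Ifitm genes, of a family that includes membrane proteins that block virus entry, lay between -0.14 and 0.03. Ifitm2 was at 201 to 313 CPM, and Ifitm1, Ifitm3 and Ifitm5 were between 4.19 and 33.8 CPM. The oligoadenylate synthetases other than Oas3 and Oasl2 were closer to 0: Oasl1 was at 0.15, and Oas1b, Oas1c and Oas2 were between -0.19 and 0.04.

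Isg15, a ubiquitin-like protein joined to other proteins after interferon, held 299, 356, 296 and 349 CPM in KO against 307, 351, 317 and 450 in WT. The groups overlap apart from WT replicate 4, for a log2 fold change of -0.13 ± 0.13 (edgeR adjusted p = 0.739) that went to 0.00 without that library. Ifi27, a mitochondrial protein gene, held 295 to 399 CPM. Its neighbour on chromosome 12, Ifi27l2a, held 35.6 to 91.6 CPM, with the highest value in WT replicate 1. Rsad2 (viperin, an antiviral enzyme) held 38.3 to 78.3 CPM, the exonuclease gene Isg20 71.8 to 104.5 CPM, its relative Isg20l2 41.5 to 58.6 CPM, Ifi35 68.6 to 92.7 CPM, Rtp4 30.6 to 59.9 CPM and the nucleic acid sensor Zbp1 18.3 to 34.4 CPM. Mx2, of a family of antiviral GTPases, held 4.12 to 10.8 CPM. The annotation used lists Mx2, Oas1b and Gbp11 as polymorphic pseudogenes.

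Within the WT group the type I genes were not even. WT replicate 4 held the highest value of the 8 libraries for 13 of the 28 tested type I genes (46.4%), against 9.73% of all tested genes, and the lowest value for none of them. Among the 4 WT libraries it was the highest for 16 of the 28 (57.1%, against 22.1% of all tested genes). The median ratio of its level to the mean of the other WT libraries was 1.22 over the type I genes, 1.02 over the interferon gamma type genes and 0.997 over all tested genes. Usp18, which removes ISG15 from proteins and dampens type I interferon signalling, was the furthest out, at 27.0 CPM in WT replicate 4 against 8.60, 13.4 and 10.2 in the other WT libraries and 16.1, 8.83, 13.6 and 14.2 in KO. Its log2 fold change was -0.18 ± 0.29 (edgeR adjusted p = 0.878), and 0.31 without WT replicate 4. Oasl1 showed the same library apart, at 43.2 CPM against 22.8, 26.1 and 22.8 in the other WT libraries and 31.4, 32.7, 32.7 and 31.8 in KO.

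On average over the 28 genes, log2(CPM + 1) in WT replicate 4 lay 0.33 above the mean of all 8 libraries. The next highest was WT replicate 2 at 0.10, and the KO libraries lay between -0.14 and -0.03. Over 27 further type I interferon-stimulated genes outside the members, WT replicate 4 stood less apart. It lay at 0.152 there, against 0.125 in KO replicate 3 and 0.078 in WT replicate 2. WT replicate 4 was the deepest library, with 3250718 UMIs, and did not share the marker counts of WT replicate 1, with Cd8b1 at 58.1 CPM and C1qa, C1qb and C1qc at 0. Its immediate early genes summed to 3576 CPM, within the WT range. Of the 13 type I genes highest in it, 11 had a promoter window and 5 of those held an ISRE core, against 4 of 9 among the type I genes highest elsewhere. The shares were 45.5% and 44.4%.

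**Figure D4:**
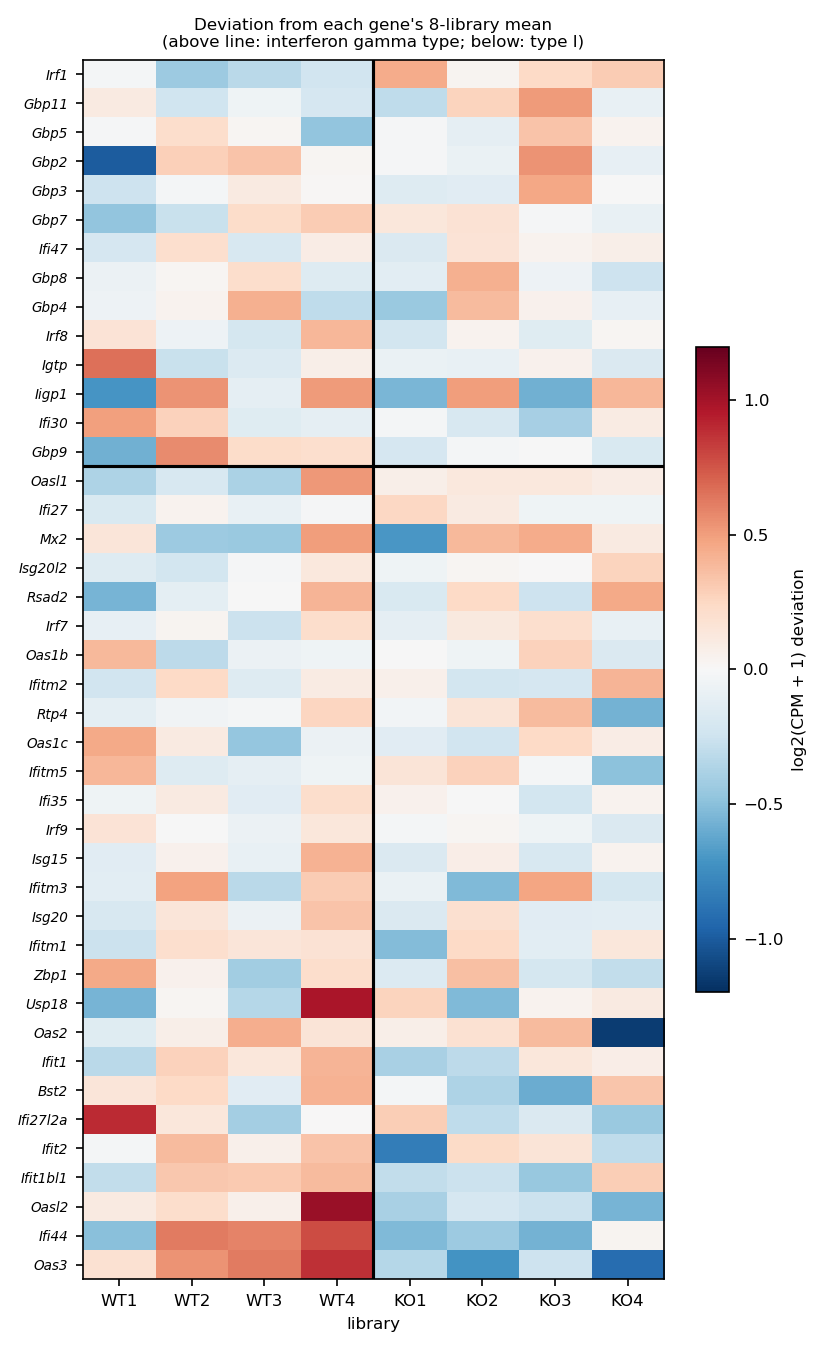
Deviation of log2(CPM + 1) from the mean of each gene over 8 libraries (colour, log2 units, limits at -1.2 and 1.2) for the 14 interferon gamma type genes above the line and the 28 tested type I genes below it, with libraries in columns. The WT replicate 4 column is mostly above the mean in the type I block, with Usp18 and Oasl2 the darkest, and is mixed in the interferon gamma block.

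**Figure D5:**
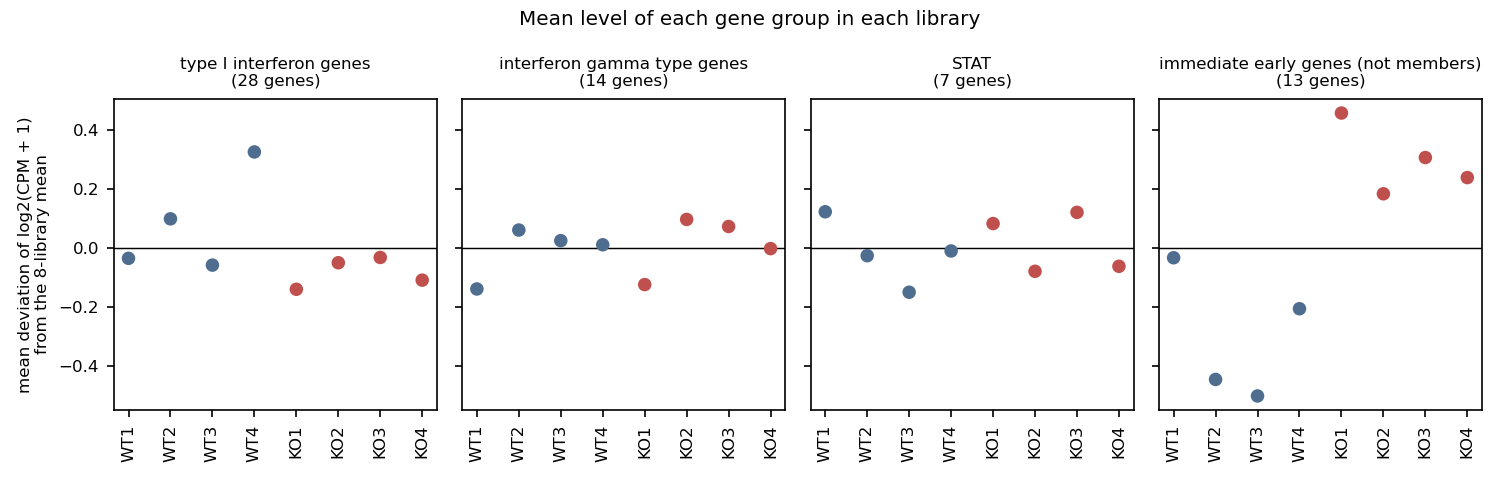
Mean deviation of log2(CPM + 1) from the 8-library mean (y axis) in each library (x axis; blue WT, red KO) for the type I, interferon gamma type and STAT groups and the 13 immediate early genes. WT replicate 4 stands at 0.33 in the type I group, while the immediate early genes separate KO (0.18 to 0.46) from WT (-0.50 to -0.03).

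The 6 members below the count filter were all thinly counted and get no fold change. Ifih1, the sensor MDA5 of long double-stranded RNA, had 19 UMIs in the 4 KO libraries and 15 in the 4 WT libraries. Ifit3 had 20 and 38, the antiviral GTPase Mx1 20 and 23, and Oas1a 19 and 22. The Ifi200 genes Ifi208 and Ifi213 had 26 and 19, and 13 and 16.

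The Ifi200 genes encode proteins that sense or bind DNA and lie together at chr1:173468485-173942672. Ifi203 held 44.9, 41.1, 51.8 and 64.9 CPM in KO against 43.4, 54.9, 49.9 and 47.6 in WT, for a log2 fold change of 0.05 ± 0.14 (edgeR adjusted p = 0.931). Ifi206 held 2.25, 4.68, 2.27 and 3.77 CPM in KO against 2.15, 4.35, 3.74 and 6.99 in WT. Ifi209 held 2.62, 5.20, 3.88 and 4.18 CPM in KO against 2.15, 3.95, 5.10 and 3.49 in WT. Their log2 fold changes were -0.51 ± 0.39 (edgeR adjusted p = 0.666) and 0.06 ± 0.34 (edgeR adjusted p = 0.972), and in all 3 genes the KO and WT values overlap.

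Of the other IRF genes, Irf3, the constitutive factor that responds to nucleic acid sensors, was the steadiest. It held 146, 130, 147 and 145 CPM in KO against 138, 145, 139 and 145 in WT, for a log2 fold change of 0.00 ± 0.10 (edgeR adjusted p = 0.997) and a 95% interval of -0.20 to 0.20. Irf2, which competes with IRF1 for the same element, held 26.6, 15.1, 24.9 and 17.2 CPM in KO against 13.8, 20.6, 13.3 and 20.01 in WT. The groups overlap (log2 fold change 0.33 ± 0.21, edgeR adjusted p = 0.594). Irf4, a factor that lymphocytes use downstream of antigen receptors and in type 2 responses, held 12.4, 18.2, 15.9 and 16.7 CPM in KO against 23.2, 9.88, 17.3 and 11.1 in WT (log2 fold change 0.04 ± 0.24, edgeR adjusted p = 0.972). Irf5, best known in myeloid cells, held 4.12, 1.56, 3.88 and 6.70 CPM in KO against 6.02, 2.77, 3.40 and 1.59 in WT (log2 fold change 0.32 ± 0.42, edgeR adjusted p = 0.820). In both genes the groups overlap.

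The STAT genes, which encode the proteins that carry cytokine receptor signals to the nucleus, had no call between groups. The 7 log2 fold changes lay between -0.06 and 0.15, and all 7 of their 95% intervals lay within -1 and 1. Stat2, which carries type I interferon signals, held 38.9, 30.7, 35.9 and 28.9 CPM in KO against 34.8, 28.9, 31.9 and 26.4 in WT, a log2 fold change of 0.15 ± 0.15 (edgeR adjusted p = 0.751).

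Stat6, which carries the IL-4 and IL-13 signal, held 42.7, 43.7, 46.3 and 46.0 CPM in KO against 43.4, 42.7, 37.7 and 41.6 in WT, for a log2 fold change of 0.11 ± 0.12 (edgeR adjusted p = 0.773). Stat3, which serves IL-6 family cytokines, held 140, 97.7, 126 and 124 CPM in KO against 145, 127, 98.9 and 139 in WT (log2 fold change -0.06 ± 0.13, edgeR adjusted p = 0.912). Stat5a, which serves the IL-2 and IL-7 receptors, held 90.6, 82.1, 89.0 and 75.8 CPM in KO against 108, 77.9, 80.2 and 84.2 in WT (log2 fold change -0.05 ± 0.12, edgeR adjusted p = 0.922). In both genes the groups overlap. Its twin Stat5b held 120 to 170 CPM over all libraries, for a log2 fold change of -0.04. Stat4, used by IL-12 and type I interferon receptors, held 46.0 to 60.9 CPM, for a log2 fold change of 0.04. Stat3, Stat5a and Stat5b lie next to each other on chromosome 11, where the annotated ends of Stat3 and Stat5a overlap on opposite strands.

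Upstream of these factors, 10 of 13 listed interferon, receptor and Janus kinase genes were tested. By edgeR 1 rose and 0 fell, against 0.177% and 0.0333% of all tested genes. The gene that rose was Ifng, which encodes interferon gamma itself, a cytokine typical of NK cells and ILC1. It held 275, 276, 234 and 334 CPM in KO against 196, 167, 163 and 182 in WT, without overlap, for a log2 fold change of 0.66 ± 0.12 (edgeR adjusted p = 0.0187). The part of the cell type markers and early response genes given above in this difference was not tested. The call was lost without KO replicate 4 (edgeR adjusted p = 0.0501), WT replicate 2 (0.112), WT replicate 3 (0.0617) or WT replicate 4 (0.07), with log2 fold changes of 0.57 to 0.68. Its receptor chain gene Ifngr1 held 405 ± 50.1 CPM in KO against 369 ± 4.36 in WT (SD, n = 4 each), for a log2 fold change of 0.14, and the kinase gene Jak1 was at 0.18. Ifnar1 and Ifnar2, the type I receptor chains, had log2 fold changes of 0.04 and -0.04. Ifnb1, Ifna4 and Ifnlr1 were not analysed here.

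None of the 11 tested negative regulators of JAK-STAT signalling was called by edgeR, DESeq2 or limma-voom. By edgeR 1 was higher at an unadjusted p under 0.05 (5.12% of all tested genes). That gene, Ptpn1, a phosphatase that acts on Janus kinases, held 64.0 to 71.2 CPM in KO against 49.4 to 60.0 in WT, without overlap, for a log2 fold change of 0.27 ± 0.11 (edgeR adjusted p = 0.406). The suppressor genes Socs3, Cish and Socs1 were at 0.27, 0.19 and -0.18. None of the 11 tested nucleic acid sensors and adaptors was called by any of these tools either. By edgeR, 2 were higher at an unadjusted p under 0.05 (5.12% of all tested genes), and 9 were above 0 (49.5% of all tested genes). The inflammasome sensor Aim2 was at 0.43 ± 0.16 (edgeR adjusted p = 0.324), the RNA sensor Ddx58 at 0.77 ± 0.36 (edgeR adjusted p = 0.459) on 44 and 28 UMIs, and the adaptor Ticam1 at 0.41.

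Of 25 further type I interferon-stimulated genes tested, none was called by the same tools, and 12 were above 0 and 13 below. By edgeR, 2 were lower at an unadjusted p under 0.05 (5.71% of all tested genes). Ly6a (Sca-1, a surface protein) held 63.3, 43.7, 72.8 and 35.6 CPM in KO against 71.4, 94.5, 73.0 and 97.8 in WT, with overlapping groups and a log2 fold change of -0.63 ± 0.18 (edgeR adjusted p = 0.189). Slfn2, a Schlafen gene that holds T cells in quiescence, was at -0.88 ± 0.25 (edgeR adjusted p = 0.189), with its highest value, 43.4 CPM, in WT replicate 1. Trim30a was at -0.47 ± 0.23 (edgeR adjusted p = 0.474). Of 14 tested antigen processing and GTPase genes that interferon gamma induces, none was called by the same tools. By edgeR, 2 were higher at an unadjusted p under 0.05 (5.12% of all tested genes), and 5 were above 0 and 9 below, with a median of -0.07. Irgm1, a regulator of the Igtp class of GTPases, was at 0.28, the peptide-loading gene Tapbp at 0.27 and the chemokine gene Cxcl10 at -0.31.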

How the data were processed

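The labels describe 4 Il25 KO and 4 WT libraries of thymic ILC2 RNA, counted by MARS-seq. Named in the submitters' processing notes, without roles or settings, are the build mm10 and the tools STAR 2.5.2b, HTSeq, DESeq2, cutadapt and bcl2fastq. The handling of strand and of reads shared between genes is not stated there. The deposited raw counts, whole UMI numbers per the file headers, were the values used.

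Tests used edgeR 4.0.16 (R 4.3.3): filterByExpr (minimum count 10), TMM scaling (factors 0.949 to 1.058) and a quasi-likelihood test with group as the only term over all 9016 genes kept. A gene was called at a Benjamini-Hochberg adjusted p under 0.05. CPM use TMM-scaled library sizes. Standard errors derive from the F statistic. The test was checked on simulated counts. Positions are from GENCODE M21 (GRCm38, the same assembly as mm10), and promoters from RefSeq. Alternatives covered DESeq2 1.42.0, limma-voom (3.58.1), other scalings and filters, a replicate block and leaving out each library.

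1 member counted in the totals is not reported here by its values. Members and lists were chosen with earlier results of these data known. Full values are given for Irf1, Irf7, Irf8, Irf9, Stat2, the 4 members of lowest p in each role group, and Ifng. For each pathway list, called genes and up to 3 genes of lowest p are named, several by log2 fold change alone. Isg15, Usp18, Oasl1, Ifngr1, Ifnar1, Ifnar2, Socs1 and other members given by value were added after their values were seen.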

Additional observations from a re-analysis of the deposited data

Results flagged for a closer look

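With 4 libraries in a group, a library was singled out where its gap to the nearest other library exceeded Dixon's 95% critical share of the range of the group. Over 110 pairs of a tested member and a group, 9 were singled out (8.18%). Dixon's share is set to flag about 1 in 20 groups of normally distributed values, which low counts need not follow. The share over all tested genes was not computed, so the 8.18% cannot be read as an excess among the members. In the WT group, replicate 4 was far above the others for Oasl2 (gap 0.886 of the range) and Oasl1 (0.837). WT replicate 1 was far below the others for Ifit1bl1 (0.873; 3.01 CPM against 5.10 to 5.40) and Ifitm1 (0.868; 23.7 against 31.6 to 32.8), and above them for Ifitm5 (0.837; 8.60 against 5.53 to 6.03). In the KO group, replicate 2 was above the others for Isg20 (0.893; 94.1 CPM against 72.6 to 74.9) and Zbp1 (0.836; 32.2 against 20.1 to 22.1), and below them for Irf3 (0.879; 130 against 145 to 147). KO replicate 3 was above the others for Gbp2 (0.901; 18.1 against 11.3 to 11.98). The summed level of the interferon gamma type genes was lower in KO replicate 4, at 735 CPM, than in the other KO libraries, at 758 to 759 CPM (gap 0.955 of the range).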

How the results depend on the processing

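The count of members called lower was 0 under the alternatives run, but 15 of the 56 members had no adjusted p under DESeq2. The stricter filter left 13 members untested, all of them among those 15, with Oas3, Ifi44, Ifi206, Ifi209 and Irf5 included. Members in these sets could not be called there. The count called higher was 0 under the other scalings and filters and limma-voom and 1 (Irf1) under DESeq2 and the replicate block, and 0 to 1 with 1 library left out. Over all genes, DESeq2 called 28 higher and 17 lower, and the replicate block called 32 higher and 28 lower. With 1 library left out the counts were 1 to 27 higher and 0 to 12 lower, the lowest without WT replicate 2 and the highest without KO replicate 2. The replicate numbers are not said to pair mice. Same-numbered libraries correlated at 0.139, -0.005, 0 and 0.09, within the -0.152 to 0.245 of KO and WT libraries of different numbers. Of 4 numbers, 2 matched best with themselves. The block (Irf1 edgeR adjusted p = 0.0242) thus rests on shared numbers alone. Irf3 turned to -0.000442 under median of ratios. With 1 library left out, the log2 fold changes of 27 of the 56 tested members spanned 0. Among them were Igtp (-0.30 to 0.040), Usp18 (-0.35 to 0.31), Irf7 (-0.023 to 0.15), Ifi203 (-0.086 to 0.14), Ifi209 (-0.10 to 0.26), Irf4 (-0.11 to 0.28), Irf3 (-0.014 to 0.046), Stat3 (-0.16 to 0.034) and Stat5a (-0.10 to 0.065). The cause was not tested. Over the alternatives, 18 to 23 of the tested type I genes lay below 0, apart from the stricter filter, which left 21 genes, 14 of them below 0. Ifi206 was also not tested without WT replicate 4. The depth of 1915365 to 3250718 UMIs limits members under about 4 CPM.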
